A study of Mus musculus with 31 samples.

Results

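The genes described here are the 9 transcription factors Neurog2, Eomes, Insm1, Neurod1, Neurod4, Nhlh1, Prox1, Neurod2 and Neurod6, which mark successive steps in the formation of dentate granule neurons. They were chosen by name and are given from progenitor to neuron. All 9 are listed in every RNA table, among 24062 gene names in the dentate gyrus tables and 24322 in the culture tables. The study sequenced RNA from EGFP-positive cells, sorted by flow cytometry from dentate gyrus tissue of Nestin-EGFP mice on a C57BL/6 background. In this line a nestin transgene marks neural stem cells and, through the persisting protein, their recent offspring. The study compared mice given the sedative midazolam (MDZ, a benzodiazepine that enhances GABA-A receptor currents) with mice given water. A second experiment sequenced cultured neural stem cells with added Egr1, a zinc finger transcription factor induced by neuronal and growth factor signalling.

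All dentate gyrus groups carried the Nestin-EGFP transgene and all mice were injected intraperitoneally on postnatal days 7, 8 and 9. MDZ P10 mice received 10 mg/kg midazolam and Control P10 mice received water, and both were sampled at postnatal day 10, with 50000 cells of 1 mouse per library. RUN MDZ 8w mice received midazolam and were later housed with a running wheel, MDZ 8w mice received midazolam and had no wheel, and Control 8w mice received water and had no wheel. These mice were sampled at 8 weeks, with about 30000 cells pooled from 3 to 5 mice per library. Running mice without midazolam were not analysed here, so the running comparison holds for exposed mice only. The culture cells came from ICR mouse cortex at embryonic day 11, had been passaged more than 20 times, and carried an M2rtTA lentivirus with (Egr1 culture) or without (Control culture) a Flag-Egr1 lentivirus. Nothing says that the culture libraries were separate cultures, so their p-values measure only the spread between these samples.

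Granule neurons of the dentate gyrus arise from radial glia-like stem cells through intermediate progenitors and neuroblasts, and new ones are added throughout life. Neurogenin and NeuroD proteins are basic helix-loop-helix (bHLH) factors that pair with E proteins, bind the E-box motif CANNTG and activate the next factors of the cascade, while Id proteins block this pairing. Neurog2 and the T-box factor Eomes (Tbr2) mark intermediate progenitors, Insm1 is a zinc finger factor of dividing neurogenic progenitors, Neurod1, Neurod4 and Nhlh1 mark committed neuroblasts, and the homeodomain factor Prox1 with Neurod2 and Neurod6 continues in the neuron.

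Each group held 3 libraries. Levels are in FPKM at postnatal day 10 and in TPM elsewhere, both per transcript length, and the 3 data sets were never tested against each other. A P10 library had 17623 to 18470 genes above 0. The stem cell genes Nes and Sox2 averaged 9.63 and 103 FPKM in MDZ P10, against 10.2 and 99.6 FPKM in Control P10. The EGFP of the sort comes from a nestin transgene, so the level of Nes is not independent of the sort. At 8 weeks Nes averaged 50.8 TPM in RUN MDZ 8w, 57.9 TPM in MDZ 8w, against 18.7 TPM in Control 8w, and Sox2 340, 319 and 243 TPM, with neither called in any comparison at this age. The number of genes above 0 was 15568 to 15906 in RUN MDZ 8w, 15382 to 16709 in MDZ 8w and 11163 to 11397 in Control 8w. Control 8w replicates 2 and 3 were closer to each other than any other pair of 8-week libraries of the same group. Among genes at 20 to 50 TPM their log2 ratio had a robust SD of 0.265. It was 1.44 and 1.35 for each of them with replicate 1. Pairs of MDZ 8w libraries gave 0.342 to 0.369 and pairs of RUN MDZ 8w libraries 0.586 to 0.687. The mean of Control 8w replicates 2 and 3 was counted as 1 sample, so Control 8w has n = 2. Control 8w replicate 1 thus stands apart from the other 2 libraries of its group, and the results that rest on it are also given without it. Without it Control 8w is 1 sample, the mean of replicates 2 and 3, which is assumed to vary like the other 8-week groups, since those alone then give the spread. Changes are log2 changes ± SE, fitted with limma to log2(value + 1). A level given with ± is the mean and SD over the samples of its group, with n = 2 for Control 8w. The added 1 makes the change of low genes smaller. A gene was called at a Benjamini-Hochberg adjusted p below 0.05 over all genes tested.

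At postnatal day 10, 1 day after the last injection, no factor of the lineage was called different between MDZ P10 and Control P10. All 9 were detected in each of the 6 libraries, Neurod1 was the most abundant and Neurod4 the least in both groups, and the groups overlapped for every factor. None of the 9 was called, against 1 of 12914 genes tested (0.00774%), with 1575 at an unadjusted p below 0.05 and 0 of the 9 among them. The groups did not overlap for 0 of the 9, against 18.8% of all genes tested.

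The progenitor factors came first in the order. Neurog2, which starts the cascade, was at 7.50, 7.45 and 9.51 FPKM in MDZ P10 and at 8.92, 5.84 and 10.7 FPKM in Control P10 (log2 change -0.02 ± 0.18). Eomes was at 17.7, 16.3 and 21.2 FPKM in MDZ P10 and at 23.0, 15.6 and 30.0 FPKM in Control P10 (-0.26 ± 0.21). Insm1, a repressor that promotes the exit of progenitors from the ventricular surface in the embryonic cortex, was at 11.3, 10.4 and 13.2 FPKM in MDZ P10 and at 15.1, 10.5 and 17.4 FPKM in Control P10 (-0.26 ± 0.16). For these 3 genes the whole MDZ P10 range lay inside the Control P10 range, apart from the lowest Insm1 library, which belonged to MDZ P10.

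The neuroblast factors were equally close. Neurod1, which is required for granule neuron survival and maturation, was at 47.5, 40.1 and 53.6 FPKM in MDZ P10 and at 52.9, 39.6 and 59.8 FPKM in Control P10 (-0.10 ± 0.15). Neurod4 was at 2.04, 2.25 and 3.27 FPKM in MDZ P10 and at 3.01, 2.52 and 4.75 FPKM in Control P10, the most negative change of the 9 (-0.32 ± 0.19, adjusted p = 0.544). Nhlh1, a bHLH factor of newly born neurons, was at 5.88, 4.54 and 9.43 FPKM in MDZ P10 and at 7.63, 5.31 and 8.89 FPKM in Control P10 (-0.15 ± 0.24). Here the Control P10 libraries held the highest Neurod1 and Neurod4 values and MDZ P10 replicate 3 the highest Nhlh1 value.

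Of the factors that persist into neurons, Prox1, the homeodomain factor that gives granule neurons their identity, was at 25.9, 25.7 and 30.4 FPKM in MDZ P10 and at 31.4, 24.6 and 28.2 FPKM in Control P10 (-0.03 ± 0.10). Neurod2 was at 9.82, 8.73 and 10.3 FPKM in MDZ P10 and at 10.9, 7.88 and 9.44 FPKM in Control P10 (0.04 ± 0.11). Neurod6 was at 4.18, 3.92 and 4.91 FPKM in MDZ P10 and at 4.81, 3.87 and 6.00 FPKM in Control P10 (-0.13 ± 0.13). All 9 adjusted p-values lay between 0.544 and 0.971 (limma). Of the 9 changes 8 were negative, with a median of -0.13 beside 0.01 over all genes tested.

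**Figure D1:**
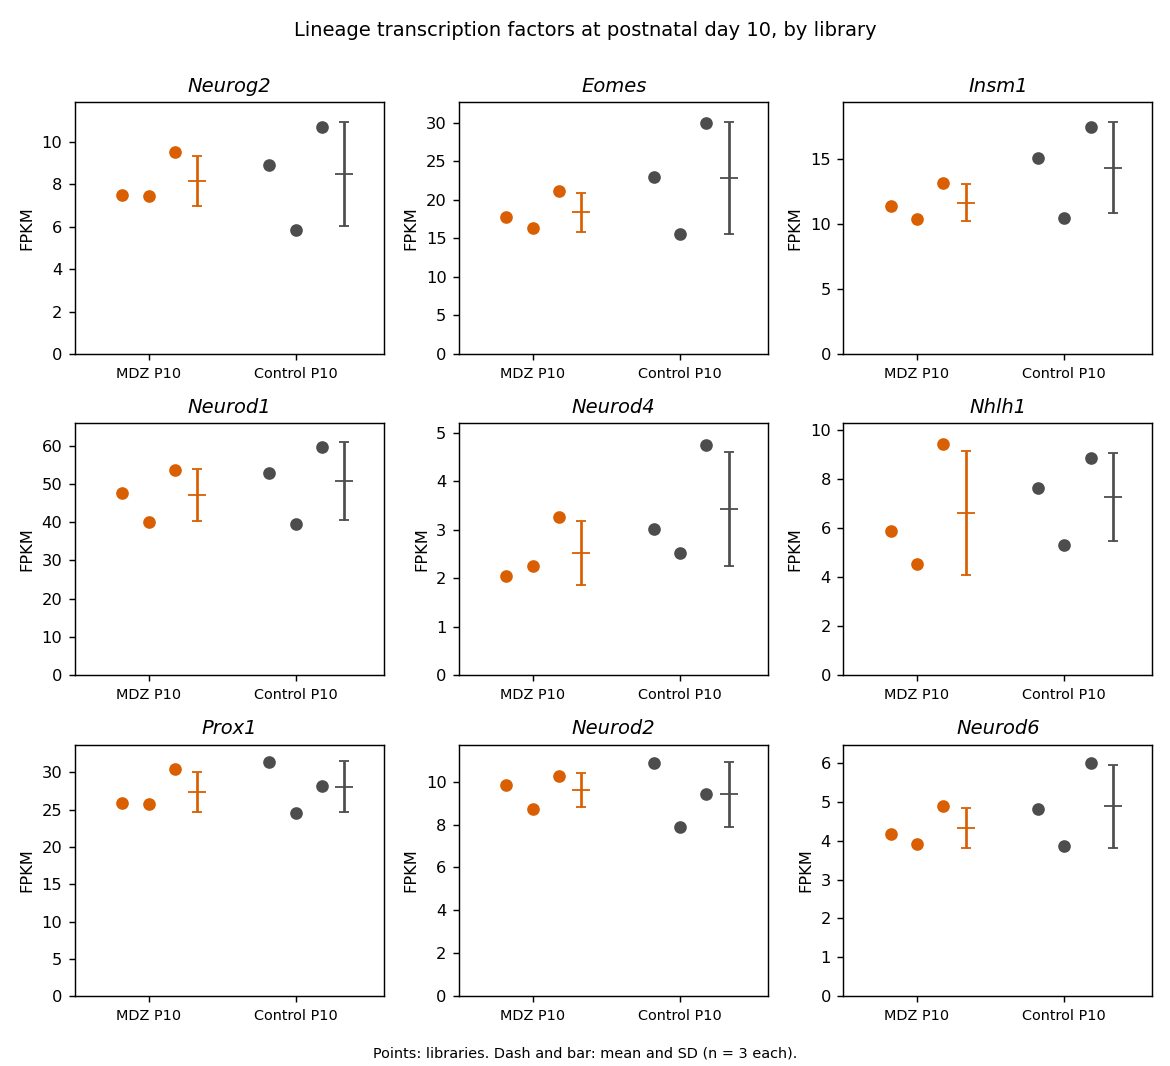
FPKM of each of the 9 lineage factors in every library at postnatal day 10, MDZ P10 left of Control P10, with the group mean and SD (n = 3 each). The MDZ P10 and Control P10 points overlap in all 9 panels, and Control P10 replicate 3 (rightmost point) is the highest library for 6 of the 9 factors.

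The spread at this age came largely from the Control P10 libraries. Control P10 replicate 3 held the highest value of 6 of the 9 factors and Control P10 replicate 2 the lowest of 6, and the sum of the 9 ran from 119 to 156 FPKM in MDZ P10 against 116 to 175 FPKM in Control P10. Control P10 replicate 2 was also the shallowest library, at a relative depth of 0.571 where the deepest, MDZ P10 replicate 3, is 1; the part of depth in these values was not tested. Without Control P10 replicate 3 the changes of Neurog2 and Neurod1 turned to 0.14 and 0.031 and that of Neurod6 to 0.00095, and in each of the fits without 1 library none of the 9 was called.

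Other genes of the same pathway did not pass either. The partners and inhibitors of bHLH factors (7 tested) and the stem and progenitor regulators (13 tested) had positive changes throughout, with medians of 0.18 and 0.19, and 0 were called in either list. The smallest adjusted p of the stem and progenitor regulators was that of Hes1, a Notch effector that represses proneural genes, at 24.0 ± 3.16 FPKM in MDZ P10, against 15.5 ± 0.476 FPKM in Control P10 (log2 change 0.59, limma adjusted p = 0.198). For the bHLH partners it was the E protein gene Tcf3 (35.5 and 31.3 FPKM, adjusted p = 0.347). Of 8 targets of proneural factors, 5 changes were positive and 0 were called, with Btg2, an antiproliferative gene of neurogenic divisions, at 43.4 ± 4.92 FPKM in MDZ P10, against 30.1 ± 5.38 FPKM in Control P10 (0.52, adjusted p = 0.247). Of 11 immature neuron genes, 10 changes were negative with a median of -0.13, and 0 were called. Markers of mural cells summed to 138 to 163 FPKM in MDZ P10, against 183 to 222 FPKM in Control P10, and those of oligodendrocytes to 1076 to 1405 and 1082 to 2386 FPKM; their part in the levels of the 9 factors was not tested.

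At 8 weeks, 3 of the 9 factors were called lower in MDZ 8w relative to Control 8w: Neurod1, Nhlh1 and Prox1, with MDZ 8w means of 0.488, 0.471 and 0.536 times the Control 8w means. Against these 3, 69 of 15264 genes tested were called lower (0.452%) and 783 were called in either direction (5.13%), 714 of them higher; with quantile normalization the split was 124 higher and 28 lower. The changes of all 9 were negative, with a median of -0.83, whereas the median over all genes tested was 0.36 and 66.1% of genes had a positive change. Control 8w libraries had 11163 to 11397 genes above 0 and MDZ 8w libraries 15382 to 16709. The part of this difference in the medians, the calls and the levels of the factors was not tested. The groups did not overlap, with MDZ 8w lower, for Eomes, Neurod1, Nhlh1, Prox1 and Neurod6, 5 of 9, against 11.3% of genes tested. The SE was 0.19 to 0.21 for the 3 called changes, against 0.54 for Neurog2 and 0.47 for Insm1. The calls therefore do not show that the progenitor factors were spared. In bulk RNA of sorted cells, fewer cells of a type and less RNA per cell cannot be told apart.

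Neurod1 was at 397, 458 and 564 TPM in MDZ 8w and at 923, 1055 and 969 TPM in Control 8w. Every MDZ 8w library lay well below every Control 8w library, and the log2 change was -1.05 ± 0.19 (limma adjusted p = 0.0223). Nhlh1 was at 122, 113 and 160 TPM in MDZ 8w and at 292, 242 and 290 TPM in Control 8w, with a log2 change of -1.09 ± 0.21 (limma adjusted p = 0.0257). Prox1 was at 202, 221 and 271 TPM in MDZ 8w and at 465, 401 and 395 TPM in Control 8w, with a log2 change of -0.90 ± 0.19 (limma adjusted p = 0.0362). For these 3 genes Control 8w replicate 1 lay above MDZ 8w like the other Control 8w libraries, and their changes without it were -1.11, -1.03 and -0.79. The adjusted p-values of that fit, 0.0146, 0.0221 and 0.0402, rest on a Control 8w arm of 1 sample.

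Neurod6, a bHLH factor of postmitotic forebrain neurons, came close to the threshold. It was at 51.2, 58.3 and 53.4 TPM in MDZ 8w and at 93.6, 109 and 138 TPM in Control 8w, with no overlap and a change of -0.98 ± 0.23 (limma adjusted p = 0.0545). Without Control 8w replicate 1, which leaves 1 Control 8w sample, the change was -1.17 (adjusted p = 0.0110). Eomes was at 263, 344 and 371 TPM in MDZ 8w and at 601, 437 and 400 TPM in Control 8w; the groups did not overlap, but the change of -0.64 ± 0.22 was not called (adjusted p = 0.150).

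For the other 4 factors the Control 8w libraries lay further apart than the group means. Neurog2 was at 84.0, 83.6 and 105 TPM in MDZ 8w and at 219, 65.9 and 72.8 TPM in Control 8w, with a change of -0.45 ± 0.54 that turned to 0.38 without Control 8w replicate 1. Insm1 was at 109, 152 and 161 TPM in MDZ 8w and at 87.2, 279 and 284 TPM in Control 8w, with a change of -0.17 ± 0.47 that became -1.01 without Control 8w replicate 1. For both genes Control 8w replicate 1 lay on the other side of MDZ 8w from Control 8w replicates 2 and 3.

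Neurod4, the least abundant factor, was at 36.3, 43.9 and 41.3 TPM in MDZ 8w and at 25.8, 75.2 and 57.3 TPM in Control 8w (-0.04 ± 0.44). Neurod2, a bHLH factor of differentiating neurons, was at 48.3, 63.1 and 77.4 TPM in MDZ 8w and at 166, 74.6 and 72.5 TPM in Control 8w (-0.83 ± 0.40, adjusted p = 0.265). Without Control 8w replicate 1 these changes were -0.70 and -0.25, and neither was called.

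The 3 calls rest on few libraries. Without MDZ 8w replicate 1 the adjusted p was 0.0937 for Neurod1, 0.126 for Nhlh1 and 0.150 for Prox1, and without MDZ 8w replicate 2 it was 0.0891, 0.107 and 0.129, so that 0 of the 9 were called in either case. Prox1 was also lost without MDZ 8w replicate 3 (0.0637), without RUN MDZ 8w replicate 1 (0.0601) or 3 (0.0517), which share in the estimate of the spread, and with the 2 compared groups alone (0.0596). With quantile normalization, which moves the median of all genes to -0.06, the changes of Neurod1, Nhlh1 and Prox1 were -1.01, -0.97 and -0.81, and none was called (adjusted p 0.0680, 0.0794 and 0.103). None was called with library quality weights either (0.627, 0.617 and 0.662).

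The promoter windows of the 3 genes that fell, and of Neurod2, are printed because they hold an E-box form that NeuroD and neurogenin proteins are known to bind. RefSeq windows on GRCm38.p6 (the mm10 build of the files, 250 bases before to 50 after an annotated start) were found for 8 of the 9 factors, 10 windows in all, with 2 each for Neurod4 and Prox1. The motifs CAGATG (also read as CATCTG) and, separately, CATATG were searched on both strands. A match was found in 4 of the 10 windows, 1 window each for 4 factors, against 20.3% of 32851 windows of all genes (17.2% for the first motif and 3.91% for the second). Another E-box, CAGCTG, matched 1 window, that of Neurod4 (16.3% of all windows), and the Egr1 consensus GCGGGGGCG matched none (2.91% of all windows). A match is a description of the letters and no evidence of binding. Each sequence runs 5′ to 3′ along the strand of its gene, and capitals mark these matches.
Neurod1 (chr2:79456587-79456886, minus strand): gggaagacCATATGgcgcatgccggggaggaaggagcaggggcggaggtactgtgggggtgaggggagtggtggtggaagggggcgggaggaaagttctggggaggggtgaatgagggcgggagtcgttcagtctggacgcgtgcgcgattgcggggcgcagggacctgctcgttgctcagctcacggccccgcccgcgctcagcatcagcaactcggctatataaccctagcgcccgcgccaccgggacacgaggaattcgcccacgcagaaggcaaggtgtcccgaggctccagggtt
Nhlh1 (chr1:172057547-172057846, minus strand): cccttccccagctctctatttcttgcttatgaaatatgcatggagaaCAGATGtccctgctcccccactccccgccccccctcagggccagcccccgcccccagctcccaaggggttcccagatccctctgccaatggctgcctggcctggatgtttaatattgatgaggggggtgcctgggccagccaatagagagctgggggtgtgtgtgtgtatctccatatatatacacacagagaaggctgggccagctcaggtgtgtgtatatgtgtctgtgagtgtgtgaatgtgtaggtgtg
Prox1 (chr1:190170778-190171077, minus strand): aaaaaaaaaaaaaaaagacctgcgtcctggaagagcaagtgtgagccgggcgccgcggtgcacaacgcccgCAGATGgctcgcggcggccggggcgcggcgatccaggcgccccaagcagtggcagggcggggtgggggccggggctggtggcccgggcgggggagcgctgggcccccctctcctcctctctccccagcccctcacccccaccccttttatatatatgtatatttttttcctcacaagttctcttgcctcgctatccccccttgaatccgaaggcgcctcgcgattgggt
Neurod2 (chr11:98329596-98329895, minus strand): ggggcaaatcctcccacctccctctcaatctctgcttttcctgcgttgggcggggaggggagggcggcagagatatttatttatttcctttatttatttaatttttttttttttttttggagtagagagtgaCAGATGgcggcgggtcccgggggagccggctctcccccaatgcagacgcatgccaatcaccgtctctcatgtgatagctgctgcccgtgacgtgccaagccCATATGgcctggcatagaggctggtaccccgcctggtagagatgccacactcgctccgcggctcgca

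The genes lie on GRCm38.p6 at chr2:79452637-79456636 (Neurod1), chr1:172052292-172057596 (Nhlh1), chr1:190118035-190170827 (Prox1) and chr11:98325415-98329645 (Neurod2), and the others at chr3:127632733-127635636 (Neurog2), chr2:146221997-146225020 (Insm1), chr10:130268152-130280254 (Neurod4) and chr6:55677818-55681263 (Neurod6). The annotation places the noncoding gene Prox1os over Prox1 and the noncoding gene Gm33408 over Eomes (chr9:118478186-118486132). Neither noncoding gene is listed in the files and no strand setting of the counting is given, so the levels of Prox1 and Eomes may hold reads of these neighbours.

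**Figure D2:**
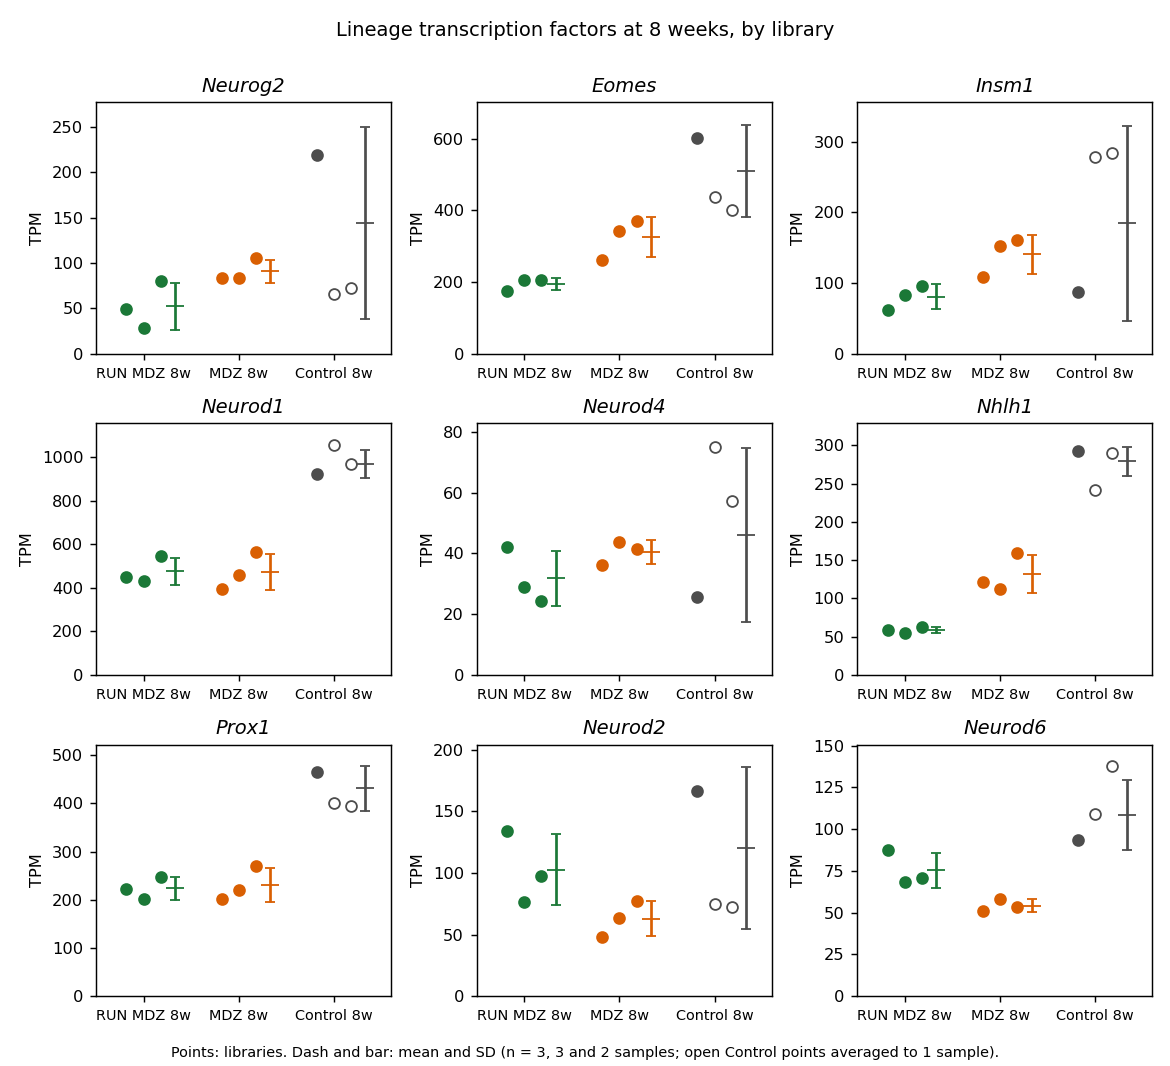
TPM of each of the 9 lineage factors in every library at 8 weeks, with RUN MDZ 8w, MDZ 8w and Control 8w from left to right and the group mean and SD (n = 3, 3 and 2; the open Control 8w points are replicates 2 and 3, averaged to 1 sample). Neurod1, Nhlh1 and Prox1 are lower in every MDZ 8w library than in every Control 8w library, Nhlh1 and Eomes are lower again in RUN MDZ 8w, and Neurog2, Insm1 and Neurod2 split the Control 8w libraries.

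Among related genes, a few of the same class fell with these factors. Of 18 other neuronal transcription factors, 2 fell and 0 rose: Myt1l, a zinc finger repressor of non-neuronal programmes, at 49.6 ± 4.40 TPM in MDZ 8w, against 119 ± 16.6 TPM in Control 8w (log2 change -1.24, limma adjusted p = 0.0234), and Bhlhe22, a bHLH repressor of postmitotic neurons, at 89.8 ± 18.3 TPM in MDZ 8w, against 190 ± 38.5 TPM in Control 8w (-1.08, limma adjusted p = 0.0420). Of 8 targets of proneural factors, 1 fell, Rnd2, a Neurog2 target in neuronal migration, at 435 ± 19.8 TPM in MDZ 8w, against 664 ± 16.2 TPM in Control 8w (-0.61, limma adjusted p = 0.0455). Of 11 immature neuron genes, 10 changes were negative with a median of -0.39 and 0 were called, the smallest adjusted p being that of the calcium-binding protein gene Calb2 (459 and 714 TPM, adjusted p = 0.154).

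Inhibitors of the cascade went the other way in 2 cases. Of 7 bHLH partners and inhibitors, 1 rose: Id4, whose product keeps neural stem cells quiescent by sequestering E proteins, was at 231 ± 14.8 TPM in MDZ 8w, against 50.5 ± 1.28 TPM in Control 8w (log2 change 2.17, limma adjusted p = 0.00348). Of 13 stem and progenitor regulators, 1 rose: Rest, a repressor of neuronal genes, was at 7.14 ± 1.30 TPM in MDZ 8w, against 0.0177 ± 0.0251 TPM in Control 8w (2.99, limma adjusted p = 0.0177). Rest is thus a gene at or near 0 in the Control 8w libraries, which list fewer genes above 0 than the other groups.

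Markers of other cells moved with the comparison. Markers of radial glia-like cells summed to 3030 to 3817 TPM in MDZ 8w, against 1642 to 1845 TPM in Control 8w, with 3 of 7 called higher (Fabp7, Hopx and Slc1a3), and astrocyte markers to 1129 to 1234 and 545 to 695 TPM, with 1 of 7 called higher (Mlc1). Ependymal markers, of which 4 of 4 were called higher, summed to 32.1 to 64.7 TPM in MDZ 8w and were at 0 for all 4 genes in every Control 8w library. The Control 8w libraries list fewer genes above 0 than the other groups, and the part of this in values of 0 was not tested. Mural markers summed to 587 to 1277 TPM in MDZ 8w, against 2333 to 3434 TPM in Control 8w, with 1 of 5 called lower, and endothelial markers to 205 to 239 and 269 to 320 TPM, with 1 of 6 called lower. Among the mature granule neuron genes, 4 of 10 (Calb1, Camk2a, Dsp and Tdo2) were listed at 0 in all Control 8w libraries, while the list summed to 418 to 486 TPM in MDZ 8w, against 612 to 636 TPM in Control 8w. Choroid plexus markers summed to 1.86 to 26.4 TPM in MDZ 8w and to 0.121, 4540 and 4812 TPM in Control 8w, so that they set Control 8w replicates 2 and 3 apart from replicate 1 and from MDZ 8w, with 0 of 3 called. Microglia markers summed to 27.1 to 106 TPM in MDZ 8w and to 0.0381, 125 and 118 TPM in Control 8w. The part of these markers in the lower Neurod1, Nhlh1 and Prox1 levels was not tested.

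**Figure D3:**
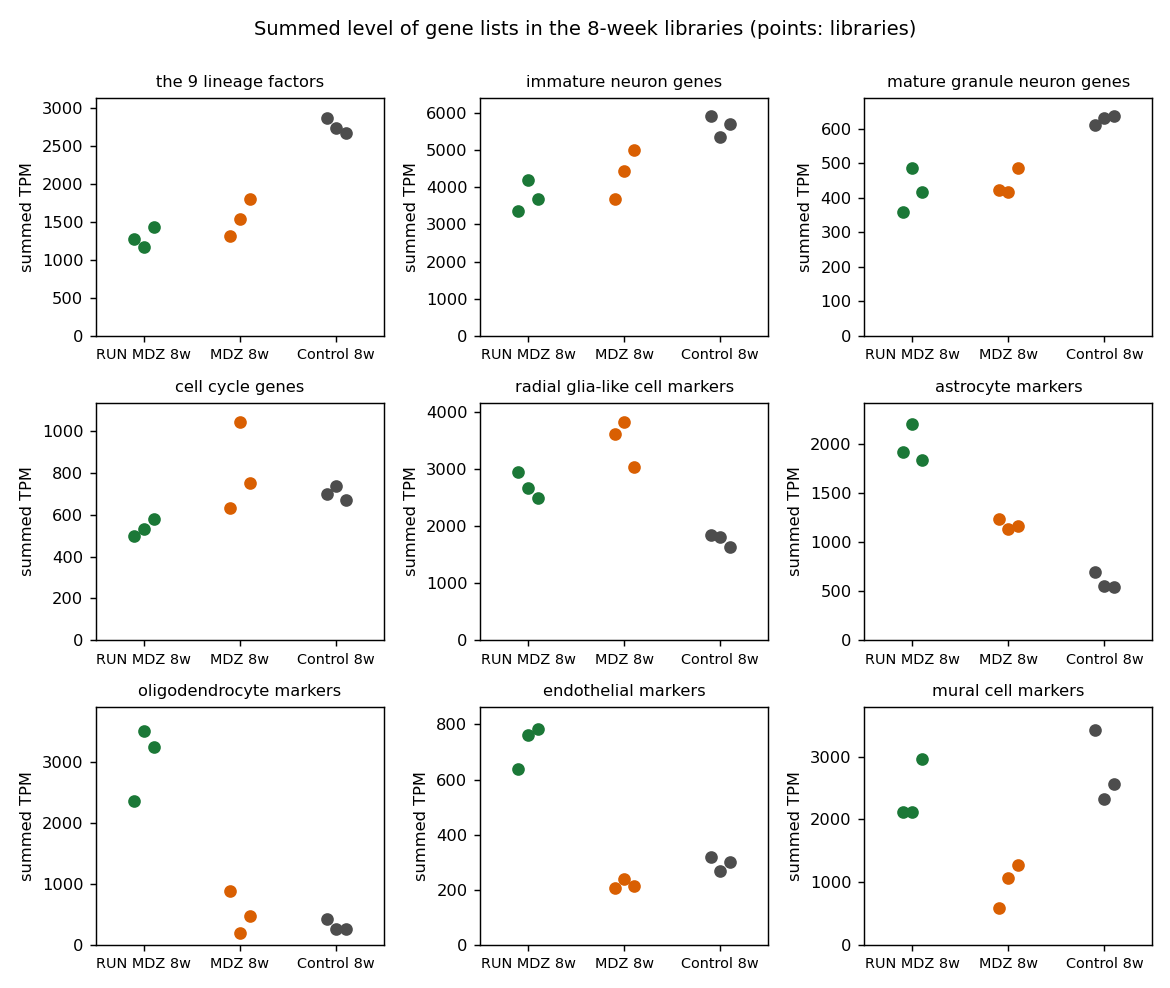
Summed TPM of the 9 lineage factors and of 8 gene lists in each 8-week library, with RUN MDZ 8w, MDZ 8w and Control 8w from left to right. The sum of the 9 factors is highest in the 3 Control 8w libraries (2679 to 2873 TPM), whereas oligodendrocyte and endothelial markers are highest in the 3 RUN MDZ 8w libraries (2353 to 3508 and 637 to 784 TPM).

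The next comparison asked how a running wheel altered the lineage in exposed mice. None of the 9 factors was called between RUN MDZ 8w and MDZ 8w, against 24 of 15264 genes called in either direction (0.157%) and 1523 at an unadjusted p below 0.05, of which 2 were lineage factors (Nhlh1 and Eomes). The changes were negative for the 3 progenitor factors Neurog2, Eomes and Insm1 and for Neurod4 and Nhlh1, near 0 for Neurod1 and Prox1, and positive for Neurod2 and Neurod6. The groups did not overlap, with RUN MDZ 8w lower, for Neurog2, Eomes, Insm1 and Nhlh1 (10.5% of genes tested were lower without overlap), and with RUN MDZ 8w higher for Neurod6 (14.4%).

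Among the progenitor factors, Neurog2 was at 49.0, 28.6 and 79.8 TPM in RUN MDZ 8w and at 84.0, 83.6 and 105 TPM in MDZ 8w, with a log2 change of -0.89 ± 0.49 (limma adjusted p = 0.634). Eomes was at 175, 205 and 205 TPM in RUN MDZ 8w and at 263, 344 and 371 TPM in MDZ 8w (-0.73 ± 0.20, limma adjusted p = 0.237). Insm1 was at 61.8, 83.8 and 96.6 TPM in RUN MDZ 8w and at 109, 152 and 161 TPM in MDZ 8w (-0.80 ± 0.42, limma adjusted p = 0.600). In all 3 the highest RUN MDZ 8w library lay under the lowest MDZ 8w library, by a narrow margin for Neurog2.

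The neuroblast factors parted. Nhlh1 was at 59.3, 54.4 and 62.9 TPM in RUN MDZ 8w and at 122, 113 and 160 TPM in MDZ 8w, with the largest change of the 9 (-1.13 ± 0.19, limma adjusted p = 0.0887). It was called in the fits without Control 8w replicate 1 (adjusted p = 0.0276), with library quality weights (0.0176), with the 2 compared groups only (0.0231) and with the Control 8w replicates kept apart (0.0327), in each of which 1 of the 9 factors was called, and its change lay between -1.23 and -0.98 over all the alternatives and left-out libraries. Neurod1 was at 450, 431 and 546 TPM in RUN MDZ 8w and at 397, 458 and 564 TPM in MDZ 8w (0.02 ± 0.17). Neurod4 was at 42.0, 28.9 and 24.4 TPM in RUN MDZ 8w and at 36.3, 43.9 and 41.3 TPM in MDZ 8w (-0.37 ± 0.39). The groups overlapped for both.

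Prox1 was at 222, 201 and 248 TPM in RUN MDZ 8w and at 202, 221 and 271 TPM in MDZ 8w (-0.04 ± 0.17), again with overlapping groups. Neurod2 was at 134, 76.7 and 97.3 TPM in RUN MDZ 8w and at 48.3, 63.1 and 77.4 TPM in MDZ 8w (0.68 ± 0.36, limma adjusted p = 0.603), where a single pair of libraries overlapped. Neurod6 was at 87.5, 68.1 and 70.6 TPM in RUN MDZ 8w and at 51.2, 58.3 and 53.4 TPM in MDZ 8w (0.46 ± 0.21, limma adjusted p = 0.521), with every RUN MDZ 8w library above every MDZ 8w library. The median change of the 9 was -0.37, beside 0.05 over all genes tested.

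**Figure D4:**
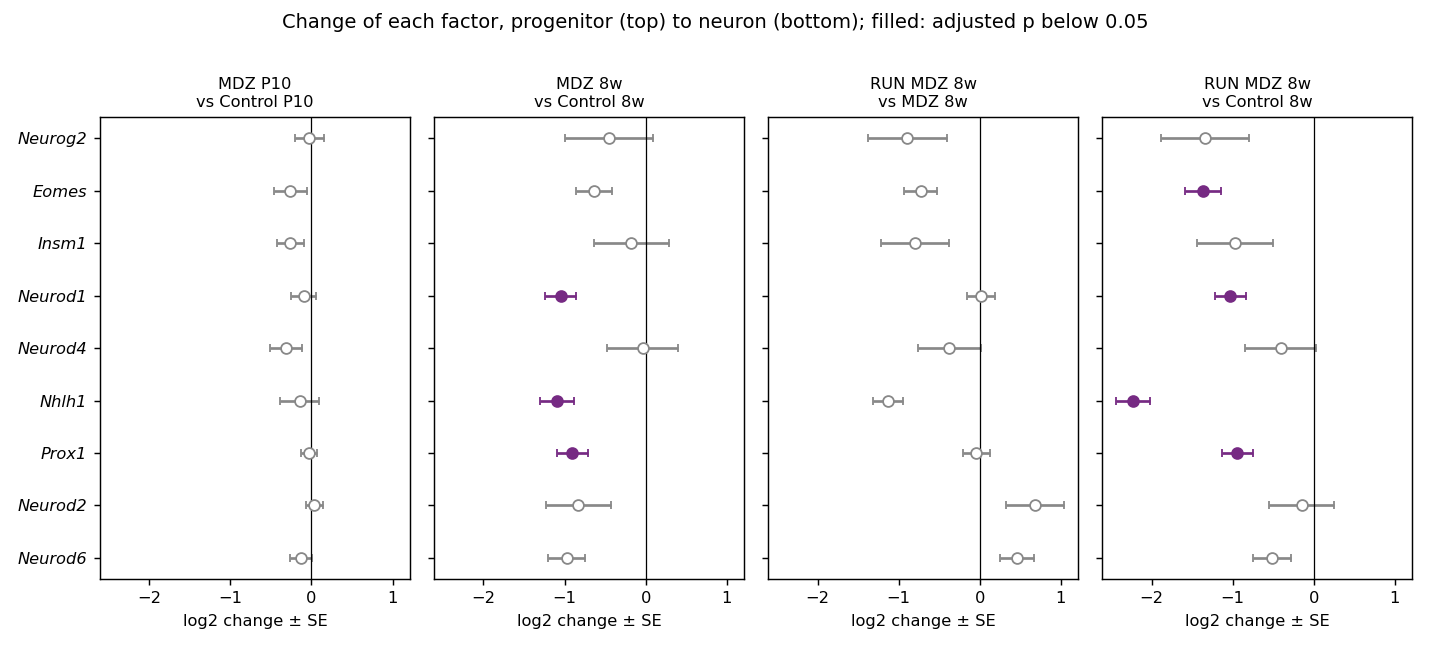
Log2 change ± SE of each factor in the 4 dentate gyrus comparisons, ordered from progenitor (top) to neuron (bottom), with filled points for an adjusted p below 0.05. MDZ P10 against Control P10 stays within 0.32 of 0, Neurod1, Nhlh1 and Prox1 are called lower in MDZ 8w against Control 8w, and none of the changes of RUN MDZ 8w against MDZ 8w is called.

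Other lineage genes gave no calls in the running comparison. Of 8 targets of proneural factors, 6 changes were negative with a median of -0.63, and Gadd45g, a growth arrest gene switched on by proneural factors, was at 169 ± 60.1 TPM in RUN MDZ 8w and 473 ± 86.2 TPM in MDZ 8w (log2 change -1.53, limma adjusted p = 0.173). Of 13 stem and progenitor regulators, 8 were negative, with the Notch effector Hes5 at 65.4 ± 13.3 TPM in RUN MDZ 8w and 135 ± 31.6 TPM in MDZ 8w (-1.03, limma adjusted p = 0.228). The bHLH partners (4 of 7 positive, Id1 at 147 and 85.7 TPM), the other neuronal transcription factors (9 of 18 positive, Zbtb20 at 65.0 and 122 TPM) and the immature neuron genes (3 of 11 positive, Draxin at 151 and 243 TPM) had smallest adjusted p-values of 0.347, 0.368 and 0.297.

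Marker sums of other cells differed in both directions. Oligodendrocyte markers summed to 2353 to 3508 TPM in RUN MDZ 8w and 186 to 881 TPM in MDZ 8w, and ependymal markers to 249 to 500 and 32.1 to 64.7 TPM. Likewise astrocyte markers summed to 1831 to 2197 and 1129 to 1234 TPM, endothelial markers to 637 to 784 and 205 to 239 TPM, and mural markers to 2114 to 2971 and 587 to 1277 TPM. Of these lists 3 of 6 endothelial and 1 of 5 mural markers were called higher, and 0 of the oligodendrocyte, ependymal and astrocyte markers. Radial glia-like cell markers summed to 2489 to 2955 TPM in RUN MDZ 8w and 3030 to 3817 TPM in MDZ 8w, without overlap and with 0 of 7 called. Microglia markers summed to 6.03 to 33.7 TPM in RUN MDZ 8w and 27.1 to 106 TPM in MDZ 8w, and choroid plexus markers to 4.29, 29.6 and 3595 TPM in RUN MDZ 8w and 1.86 to 26.4 TPM in MDZ 8w. Cell cycle genes summed to 501 to 579 TPM in RUN MDZ 8w and 632 to 1045 TPM in MDZ 8w, with 0 of 8 called. Cajal-Retzius markers summed to 14.8 to 26.0 TPM in RUN MDZ 8w and 5.77 to 7.10 TPM in MDZ 8w, without overlap. Pyramidal neuron markers summed to 73.0 to 107 and 56.9 to 87.5 TPM. For GABAergic neuron markers the sums were 65.8 to 178 and 102 to 233 TPM. No marker of these neuron lists was called. The part of all these markers in the levels of the 9 factors was not tested.

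RUN MDZ 8w was also set against Control 8w, a comparison that shares its Control 8w samples with that of MDZ 8w and its RUN MDZ 8w samples with the one above, so the values are given side by side and not as separate evidence. Of the 9 factors 4 fell in RUN MDZ 8w and 0 rose, against 290 of 15264 genes called lower (1.9%) and 1727 called in either direction (11.3%), 1437 of them higher; with quantile normalization the split was 278 higher and 128 lower. Nhlh1 had a log2 change of -2.23 ± 0.21 (59.3, 54.4 and 62.9 TPM in RUN MDZ 8w and 292, 242 and 290 TPM in Control 8w, limma adjusted p = 0.00174), a ratio of means of 0.211. Eomes had -1.36 ± 0.22 (limma adjusted p = 0.0101), Neurod1 -1.03 ± 0.19 (limma adjusted p = 0.0155) and Prox1 -0.94 ± 0.19 (limma adjusted p = 0.0200).

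The remaining 5 changes were also negative but not called: -1.34 for Neurog2, -0.97 for Insm1, -0.41 for Neurod4, -0.15 for Neurod2 and -0.52 for Neurod6. Neurod6 libraries did not overlap (68.1 to 87.5 TPM in RUN MDZ 8w and 93.6 to 138 TPM in Control 8w), as for the 4 called genes, so 5 of 9 were lower without overlap, against 10.6% of genes tested. The median of the 9 was -0.97, beside 0.51 over all genes tested. Control 8w libraries also had fewer genes above 0 than RUN MDZ 8w libraries, and the part of this in these values was not tested. Without Control 8w replicate 1, with the spread taken from the other groups because Control 8w is then 1 sample, the adjusted p was 0.000597 for Nhlh1, 0.0103 for Eomes, 0.0121 for Neurod1 and 0.0268 for Prox1. In that fit Insm1 (-1.81, adjusted p = 0.00414) and Neurod4 (-1.07, adjusted p = 0.04998) were also under the threshold, and the change of Neurod2 turned to 0.44. Leaving out RUN MDZ 8w replicate 1 ended the Prox1 call (adjusted p = 0.0504). All 4 calls were lost with the 2 compared groups only (0.0845 for Nhlh1, 0.0846 for Eomes, 0.0904 for Neurod1 and 0.110 for Prox1), and all 4 with library quality weights (0.183, 0.426, 0.558 and 0.558 in the same order). Quantile normalization ended those of Neurod1 (0.0541) and Prox1 (0.0783).

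In RUN MDZ 8w further genes of the lineage were called. Of 11 immature neuron genes 4 fell, led by the neuronal tubulin gene Tubb3 at 631 ± 119 TPM in RUN MDZ 8w, against 1231 ± 38.1 TPM in Control 8w (log2 change -0.98, limma adjusted p = 0.0267), with Dpysl5, Elavl4 and Igfbpl1. Of 18 other neuronal transcription factors 2 fell and 1 rose: Scrt2, a zinc finger repressor of new neurons, at 210 ± 26.7 TPM in RUN MDZ 8w, against 527 ± 169 TPM in Control 8w (-1.29, limma adjusted p = 0.0183), Myt1l (62.3 and 119 TPM), and Bcl11b, which was listed at 0 in all Control 8w libraries and at 4.81 ± 1.00 TPM in RUN MDZ 8w. Of 13 stem and progenitor regulators 3 fell, Emx1 and Lhx2 among them, and 1 rose, Rest. Of the proneural targets Rnd2 fell (406 and 664 TPM). Of the bHLH inhibitors Id1, Id3 and Id4 rose (147, 172 and 176 TPM in RUN MDZ 8w and 39.3, 63.5 and 50.5 TPM in Control 8w). Of the marker lists, 5 of 5 oligodendrocyte, 5 of 7 astrocyte, 4 of 4 ependymal, 4 of 6 endothelial and 1 of 5 mural markers were called higher in RUN MDZ 8w, with 0 called lower; their part in the lower levels of the 4 factors was not tested.

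The balance among the 9 factors can be read within a library, where a scaling of the whole library cancels in a ratio. Taking Neurog2, Eomes and Insm1 as the early factors and Prox1, Neurod2 and Neurod6 as the late ones, the late minus early difference of mean log2(TPM + 1) was 0.75, 0.36 and 0.04 in RUN MDZ 8w, -0.75, -0.80 and -0.82 in MDZ 8w and -0.22, -0.43 and -0.36 in Control 8w. The 3 groups did not overlap in this difference, which was highest in RUN MDZ 8w and lowest in MDZ 8w, with Control 8w between them. The early factors made up 25.3 ± 2.57% of the sum of the 9 in RUN MDZ 8w, 35.9 ± 1.58% in MDZ 8w and 30.0 ± 2.24% in Control 8w (SD, n = 3, 3 and 2), and the late factors 31.0 ± 3.11%, 22.5 ± 0.401% and 23.6 ± 2.30%. By library the late share ran from 22.3% to 23.0% in MDZ 8w and from 21.3% to 25.2% in Control 8w, so these groups overlapped in it. No test is given for these sums, since the genes were chosen with earlier results of these data known.

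Single ratios give the balance of 2 genes at a time. Prox1 over Eomes was 1.27, 0.984 and 1.21 in RUN MDZ 8w, 0.768, 0.643 and 0.730 in MDZ 8w and 0.773, 0.917 and 0.988 in Control 8w. The RUN MDZ 8w libraries lay above the MDZ 8w libraries, while the lowest of them lay just under Control 8w replicate 3. Nhlh1 and Neurod1, 2 neuroblast factors, belong to neither the early nor the late set. Nhlh1 over Neurod1 was 0.132, 0.126 and 0.115 in RUN MDZ 8w, 0.307, 0.247 and 0.284 in MDZ 8w and 0.317, 0.229 and 0.299 in Control 8w. RUN MDZ 8w stood apart from both other groups in this ratio, and MDZ 8w and Control 8w overlapped. At postnatal day 10 the same ratio was 0.124, 0.113 and 0.176 in MDZ P10 and 0.144, 0.134 and 0.149 in Control P10. The late minus early difference was -0.13, -0.13 and -0.22 in MDZ P10 and -0.26, -0.08 and -0.55 in Control P10, in FPKM and with overlapping groups.

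**Figure D5:**
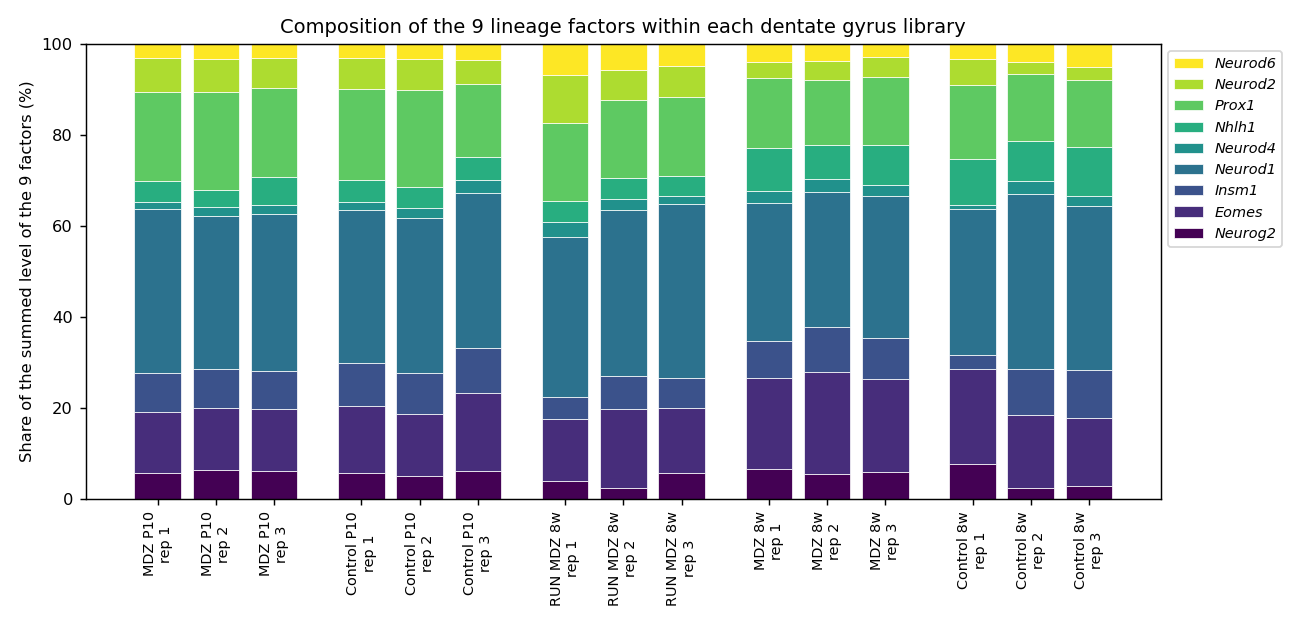
Share of each factor in the summed level of the 9 factors, in percent, for every dentate gyrus library (FPKM shares at postnatal day 10, TPM shares at 8 weeks), with early factors in dark colours at the bottom and late factors in light colours at the top. The early factors take 34.7% to 37.7% in the MDZ 8w libraries and 22.3% to 26.9% in the RUN MDZ 8w libraries, and the P10 groups overlap.

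The order of the levels differed in a few places. Neurod1 was the highest of the 9 in all 5 dentate gyrus groups and lay apart from the next gene in each, and Neurod4 was the lowest in each. Prox1 came next to Neurod1 in MDZ P10, Control P10 and RUN MDZ 8w, whereas Eomes did in MDZ 8w (326 ± 56.3 TPM, Prox1 at 231 ± 35.6 TPM) and Control 8w (510 ± 129 TPM, Prox1 at 431 ± 47.1 TPM), and the ranges of Prox1 and Eomes overlapped in each group except MDZ P10. Nhlh1 was the seventh in RUN MDZ 8w, the fifth in MDZ 8w and the fourth in Control 8w; in RUN MDZ 8w Neurod2 and Neurod6 stood above it. In the middle of the order most neighbours overlapped, among them Neurod2, Neurog2 and Nhlh1 in both P10 groups and Insm1, Neurog2 and Neurod2 in Control 8w.

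Genes with a pattern most like that of the 9 were sought among 6208 genes whose mean reached 10 in both data sets. Likeness was the smaller of a gene's Pearson correlations with the mean standardized level of the 9, across the 6 P10 samples and across the 8 samples at 8 weeks. The 8 highest were Cttnbp2, a synaptic cytoskeleton protein gene (r = 0.95 at P10 and 0.94 at 8 weeks), Sbk1, a brain kinase gene (0.94 and 0.97), Scrt2 (0.98 and 0.94), Lrp8, the reelin receptor gene, Calcoco1, Sept3, Tfcp2 and Bcl9l, the smaller r of the 8 being 0.91 to 0.94. Cttnbp2 averaged 234 TPM in RUN MDZ 8w, 277 TPM in MDZ 8w, against 432 TPM in Control 8w, and Scrt2 210, 259 and 527 TPM. These correlations describe samples that share group, library preparation and scaling, and carry no test.

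In culture, the virus-borne gene was checked first: Egr1 stood at 1769, 1390 and 1291 TPM in Egr1 culture and at 361, 285 and 344 TPM in Control culture. The neural stem cells expressed few of the lineage factors. Neurod2 and Neurod6 were listed at 0 in all 6 libraries, Neurog2, Eomes, Neurod4 and Nhlh1 did not exceed 0.242 TPM in any, and Neurod1 was at 0.434, 0.835 and 1.01 TPM in Egr1 culture and at 0.466, 0.373 and 0.447 TPM in Control culture. Only Insm1 and Prox1 reached the mean of 1 TPM required for a test.

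Insm1 fell with Egr1. It was at 4.01, 3.18 and 3.51 TPM in Egr1 culture and at 7.41, 5.93 and 7.32 TPM in Control culture, without overlap, and the log2 change was -0.79 ± 0.13 (limma adjusted p = 0.00131). In this comparison 5486 of 12402 genes tested were called (44.2%), 3598 of them lower (29%), so that 1 of 2 factors called lower is near what the whole table gives. Prox1 was at 6.32, 5.99 and 5.21 TPM in Egr1 culture and at 7.73, 6.70 and 7.98 TPM in Control culture, also without overlap (37.1% of genes were lower without overlap), with a change of -0.31 ± 0.11 (limma adjusted p = 0.0564). The median change over all genes tested was -0.10, and Insm1 was called in each of the 7 alternatives and without any 1 library.

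Genes around the cascade changed in both directions in culture. Of 8 targets of proneural factors, 3 fell and 2 rose: Hes6, a bHLH protein that promotes neurogenesis, was at 56.0 ± 0.767 TPM in Egr1 culture and 110 ± 7.74 TPM in Control culture (log2 change -0.97, limma adjusted p = 1.1e-05). Gadd45g (40.7 and 54.7 TPM) and Dll3 (3.16 and 5.46 TPM) also fell, while Mfng (8.58 and 4.06 TPM) and Btg2 (47.3 and 35.7 TPM) rose. Of the 4 Id genes, Id1 (174 and 102 TPM) and Id2 (124 and 50.2 TPM) rose and Id3 (210 and 308 TPM) fell in Egr1 culture. Id4 (1.59 and 0.480 TPM) was also called higher, but it reached the mean of 1 TPM only through Egr1 culture. Over all genes tested, 15.2% were called higher and 29% lower. Of 7 other neuronal transcription factors tested 3 rose and 0 fell, Bhlhe22, Zbtb18 and Sox4.

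Other lists also differed in sum in culture. Immature neuron genes summed to 484 to 525 TPM in Egr1 culture and 809 to 842 TPM in Control culture, with 2 of 7 tested called higher (Calb2 and Igfbpl1) and 1 lower (Gap43). Of these 7 changes 4 were positive, with a median of 0.10, so the lower sum does not describe most of the list. Oligodendrocyte precursor markers summed to 794 to 921 TPM in Egr1 culture and 1571 to 1664 TPM in Control culture, and oligodendrocyte markers to 197 to 205 TPM in Egr1 culture and 95.4 to 105 TPM in Control culture. Radial glia-like cell markers summed to 2288 to 2716 TPM in Egr1 culture and 3040 to 3599 TPM in Control culture, and astrocyte markers to 305 to 329 TPM in Egr1 culture and 430 to 457 TPM in Control culture. Of 6 astrocyte markers tested, 2 were called higher and 1 lower. None of these sums overlapped between the groups, and their part in the Insm1 and Prox1 levels was not tested.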

How the data were processed

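RNA levels of 21 libraries were analysed, and 10 ATAC-seq and ChIP-seq samples were not analysed here. The authors deposited FPKM values per gene at postnatal day 10 and TPM values per gene at 8 weeks and in culture; the unit is named from the values and their sums. Per the submitters' processing notes, the authors used the mm10 build, and TopHat, Bowtie2 and DESeq2 are named without a role or version. The program that made these values, the annotation and the strand setting are not given in the sources. Read depth is unknown at 8 weeks. At postnatal day 10 and in culture, the steps between low values gave relative depths of 0.571 to 1 and 0.899 to 1.

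Values were taken as log2(value + 1), genes whose mean over the fitted samples reached 1 were kept, and limma 3.58.1 in R 4.3.3 was fitted with empirical Bayes moderation and Benjamini-Hochberg adjustment over all genes tested, separately for postnatal day 10, 8 weeks (3 groups in 1 fit) and culture. Control 8w replicates 2 and 3 were averaged and counted as 1 sample. Groups came from the labels. The fit was tested on simulated data. The 9 genes, and for each gene list the called genes or, with none called, the gene with the smallest adjusted p, are named. Some called genes of these lists are not reported here. The genes and lists were chosen with earlier results of these data known. Alternatives were pseudocounts of 0.1 and 5, no filter, median-of-ratios scaling, quantile normalization, library quality weights, a replicate block, the 2 compared groups only, Control 8w replicates kept apart, and each library left out in turn.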

Additional observations from a re-analysis of the deposited data

How the results depend on the processing

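The 8-week results are limited by n = 2 in Control 8w and by how far its libraries differ. Number of genes called: MDZ P10 against Control P10 (1) gave 2 with a pseudocount of 5, 4 with quantile normalization, 5 with library quality weights, 0 with median-of-ratios scaling and 0 to 101 with a library left out. MDZ 8w against Control 8w (783) gave 1410 and 461 with pseudocounts of 0.1 and 5, 152 with quantile normalization, 19 with weights, 1787 with replicates apart and 207 to 2928 with a library left out. RUN MDZ 8w against MDZ 8w (24) gave 432 with weights, 360 with the 2 groups only, 122 with replicates apart and 0 to 275 with a library left out. RUN MDZ 8w against Control 8w (1727) gave 406 with quantile normalization, 0 with weights, 0 with the 2 groups only, 2904 with replicates apart and 910 to 3952 with a library left out. Egr1 culture against Control culture (5486) gave 4383 to 5012 with a library left out.

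Of the 9 factors, the calls in MDZ 8w against Control 8w (3) became 0 with quantile normalization, 0 with weights and 0 to 4 with a library left out; those in RUN MDZ 8w against MDZ 8w (0) became 1 with weights, 1 with the 2 groups only, 1 with replicates apart and 0 to 1 with a library left out; those in RUN MDZ 8w against Control 8w (4) became 2 with quantile normalization, 0 with weights, 0 with the 2 groups only and 3 to 6 with a library left out. The cause of these shifts was not tested.

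Changes that turned sign were Neurod2 at postnatal day 10 with weights (-0.047), Neurod1 with median-of-ratios scaling (-0.013) and Prox1 with quantile normalization (0.038) in RUN MDZ 8w against MDZ 8w, and Neurod2 with replicates apart (0.049) in RUN MDZ 8w against Control 8w. With a library left out, the ranges that crossed 0 were, at postnatal day 10, -0.24 to 0.14 for Neurog2, -0.26 to 0.031 for Neurod1, -0.40 to 0.058 for Nhlh1, -0.12 to 0.047 for Prox1, -0.073 to 0.14 for Neurod2 and -0.26 to 0.00095 for Neurod6; in MDZ 8w against Control 8w, -0.55 to 0.38 for Neurog2 and -0.70 to 0.065 for Neurod4; in RUN MDZ 8w against MDZ 8w, -0.10 to 0.15 for Neurod1 and -0.13 to 0.078 for Prox1; and in RUN MDZ 8w against Control 8w, -0.35 to 0.44 for Neurod2.

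The replicate numbers are not stated to pair the samples. Correlations of same-numbered deviations were -0.077 to 0.12 at postnatal day 10, -0.015 to 0.133 at 8 weeks and -0.052 to 0.021 in culture. Those of different numbers were -0.216 to 0.165, -0.109 to 0.039 and -0.047 to 0.08. Oligodendrocyte precursor markers were highest in replicate 1 of RUN MDZ 8w, MDZ 8w and Control 8w (5057, 4136 and 3084 TPM). Whether same-numbered libraries share a batch was not tested. With a replicate block 0 genes were called at postnatal day 10. At 8 weeks the block was fitted with all 9 libraries apart, so its like is the fit with replicates apart and no block: 1227 with the block and 1787 without in MDZ 8w against Control 8w, 14 and 122 in RUN MDZ 8w against MDZ 8w, and 2595 and 2904 in RUN MDZ 8w against Control 8w, where the change of Neurod2 was 0.049 in both. Fits without Control 8w replicate 1 leave 1 Control 8w sample.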
